A study of Mus musculus with 7 samples.

Results

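Chromatin accessibility was examined at 6 genes of T cell identity, which encode TCF-1 (Tcf7), LEF-1 (Lef1), TOX (Tox), TOX2 (Tox2), ID3 (Id3) and SATB1 (Satb1). Every accessible region overlapping 1 of these genes, or the 10 kb on either side of it, was taken, which gave 258 of the 113820 regions in the table. Of these, 15 lay at Tcf7, 78 at Lef1, 73 at Tox, 29 at Tox2, 6 at Id3 and 57 at Satb1. C57BL/6 mice were infected subcutaneously with 500 L3 larvae of the helminth Nippostrongylus brasiliensis, and CD4+ T cells were sorted on day 8 after infection. In IL-4-4get reporter mice, GFP+ cells were taken from the mediastinal lymph node (LN IL-4+, n = 2) and from the lung (lung IL-4+, n = 3). In IFN-gamma-Great reporter mice, YFP+ cells were taken from the lung (lung IFNγ+, n = 2). Each library was made from 50000 sorted cells by transposase cleavage of open chromatin (ATAC-seq). The study counts its replicates as mice, all within a single experiment. The p-values measure the spread between the libraries of that experiment. This holds the spread between mice together with that between the library classes described below. The age of the mice, and whether lymph node and lung libraries shared animals, were not given in the sources used here. Both reporters mark cells competent for the cytokine and do not measure secretion. Reporter strain and cytokine differ together between IFNγ+ and IL-4+ cells, and these cannot be told apart. Lung IFNγ+ and LN IL-4+ cells differ in tissue as well. Lungs were digested with enzymes and lymph nodes were dissociated mechanically, so tissue and preparation cannot be told apart in either contrast with the lymph node.

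TCF-1 and LEF-1 are HMG-box proteins that bind the same short motif and can recruit β-catenin or the Groucho family of corepressors. They are high in naive T cells, are kept in T follicular helper (Tfh) and memory-like cells, and decline in terminal effector cells. TOX and TOX2 are HMG-box proteins of another family, TOX being required for CD4+ T cell development in the thymus and TOX2 being known for its part in the Tfh program. ID3 binds E proteins and keeps them off DNA, and SATB1 organizes chromatin loops in thymocytes and T cells.

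The depth behind the values lay between 14005923 and 91681969 insertions per library, rebuilt from the table as a lower bound. The libraries fell into 2 classes by the spread of their log2 insertions per region. In 3 narrow libraries (the first lymph node library, with the second and the third of lung IL-4+ cells) the interquartile range was between 1.67 and 1.75, and in 4 wide libraries (the second lymph node library, the first of lung IL-4+ cells and both of lung IFNγ+ cells) it was between 2.91 and 3.09. Both lung IFNγ+ libraries were wide, and some differences of locus sums are therefore also given within a class. The promoters of 8 of 8 CD4+ T cell markers held an accessible region, with summed densities of 140.0 to 184 insertions per kb in LN IL-4+, 134 to 196 in lung IL-4+ and 125 to 126 in lung IFNγ+ libraries. Of 5 B cell markers, 2 (Pax5 and Ebf1) had an accessible region at the promoter, and Cd79a and Ms4a1 were among those with none. Summed over those that did, B cell marker density was 45.7 to 52.3 in LN IL-4+ cells, 18.9 to 37.6 in lung IL-4+ cells and 31.5 to 37.9 in lung IFNγ+ cells. Pax5 was the higher of the pair in the lymph node, with 35.3 and 37.4 insertions per kb in the LN IL-4+ libraries and 7.7 to 21.8 in the lung libraries, although B220+ cells were excluded in the sort. Ebf1 did not share this order, with 10.4 and 14.9 in the lymph node and 11.2 to 17.2 in the lung, so the higher B cell sum of the lymph node rested on Pax5. The part of Pax5 in the regions that were more open in the lymph node was not tested. Of 5 myeloid markers 2 had a promoter region (sums of 7.19 to 16.8, 7.18 to 20.5 and 11.9 to 15.4 in the 3 populations in the same order), and Lyz2, Csf1r and Csf3r had none. Itgam, the gene of CD11b, had 7.77 and 5.39 insertions per kb in lung IFNγ+ libraries and 0.898 to 2.89 in the others. CD11b+ cells were excluded in the sort. Cd68 had 13.9 to 17.6 in narrow and 5.4 to 7.67 in wide libraries. The NK cell gene Klrb1c, 1 of 3 NK markers with a promoter region, had 2.01 to 2.5 insertions per kb in LN IL-4+, 1.15 to 3.98 in lung IL-4+ and 5.49 to 7.66 in lung IFNγ+ libraries. Cd8b1, 1 of 2 CD8+ T cell markers, had 6.61 to 7.31, 2.95 to 5.57 and 3.94 to 4.09 in the same order, while 3 of 5 epithelial and endothelial markers summed to between 38.1 and 42.8 in all libraries. The part of these markers in the differences was not tested.

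The central 300 bases are shown for the regions on which the results turn, read 5′ to 3′ on the plus strand of GRCm38. The first 4 were the regions that passed the test for a difference between populations, all in introns. The last was an intronic region of Lef1 with its highest density in lung IL-4+ cells, which did not pass that test. Capitals mark matches on either strand to the letters ATCAAAG for TCF and LEF, CAGCTG for E proteins, CACCTG likewise for E proteins, TGGAAAA for NFAT, TGANTCA for bZIP factors, AACCACA for RUNX, AGGTGTGA for T-box factors and AGATAA for GATA factors.
Tox2, 96.0 kb from the gene start, chr2:163298963-163299262: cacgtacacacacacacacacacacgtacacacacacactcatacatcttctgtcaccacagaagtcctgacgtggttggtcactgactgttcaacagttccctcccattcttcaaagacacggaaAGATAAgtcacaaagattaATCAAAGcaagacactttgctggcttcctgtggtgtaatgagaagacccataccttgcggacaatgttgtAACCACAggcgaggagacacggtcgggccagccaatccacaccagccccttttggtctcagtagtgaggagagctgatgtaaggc
Tox2, 5.4 kb from the gene start, chr2:163208408-163208707: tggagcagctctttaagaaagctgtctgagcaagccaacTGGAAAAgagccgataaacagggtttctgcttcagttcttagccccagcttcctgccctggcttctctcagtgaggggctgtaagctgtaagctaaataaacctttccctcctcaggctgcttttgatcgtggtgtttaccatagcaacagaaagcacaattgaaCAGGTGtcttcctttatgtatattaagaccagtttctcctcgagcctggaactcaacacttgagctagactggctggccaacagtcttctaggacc
Tox, 33.1 kb from the gene start, chr4:6958264-6958563: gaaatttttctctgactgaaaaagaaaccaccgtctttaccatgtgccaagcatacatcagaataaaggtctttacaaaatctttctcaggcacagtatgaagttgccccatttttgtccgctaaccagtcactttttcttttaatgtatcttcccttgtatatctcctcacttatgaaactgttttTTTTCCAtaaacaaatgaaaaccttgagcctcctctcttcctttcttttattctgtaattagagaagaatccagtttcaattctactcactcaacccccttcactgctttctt
Tox, 121.1 kb from the gene start, chr4:6870265-6870564: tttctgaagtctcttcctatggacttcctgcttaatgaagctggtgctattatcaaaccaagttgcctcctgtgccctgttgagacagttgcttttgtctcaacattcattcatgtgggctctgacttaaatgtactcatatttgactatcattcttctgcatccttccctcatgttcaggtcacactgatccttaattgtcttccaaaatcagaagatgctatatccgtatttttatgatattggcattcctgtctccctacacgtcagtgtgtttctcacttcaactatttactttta
Lef1, 66.8 kb from the gene start, chr3:131177117-131177416: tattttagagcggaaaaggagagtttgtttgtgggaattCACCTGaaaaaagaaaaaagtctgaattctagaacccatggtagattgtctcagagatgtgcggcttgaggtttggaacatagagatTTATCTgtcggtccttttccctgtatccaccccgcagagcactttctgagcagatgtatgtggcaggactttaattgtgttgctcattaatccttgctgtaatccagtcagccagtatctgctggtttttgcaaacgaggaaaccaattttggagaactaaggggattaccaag

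Tox2 (chr2:163203125-163324170, plus strand) was more open in the lymph node than in both lung populations at a pair of intronic regions, and than in lung IFNγ+ cells at its promoter, while its strongest region differed little. The intronic region 96.0 kb from the gene start (chr2:163298889-163299335) had log2 densities, in log2 normalized insertions per kb, of 4.12 and 4.22 in LN IL-4+ cells. The same region had 1.59, 1.40 and 1.15 in lung IL-4+ cells and 1.29 and 1.58 in lung IFNγ+ cells. Both lymph node libraries stood above all 5 lung libraries, in the narrow and in the wide class alike. Lung IL-4+ cells were lower than LN IL-4+ cells by 6.92-fold (log2 difference -2.79, SE 0.33, adjusted p = 0.00413, limma), and lung IFNγ+ cells by 6.65-fold (log2 difference -2.73, SE 0.36, adjusted p = 0.00415, limma). The 2 lung populations differed there by -0.06 (SE 0.33, limma adjusted p = 0.946). The window printed above for this region holds 1 TCF and LEF match, 1 GATA match and 1 RUNX match. The rebuilt insertions behind these values were 205 and 560 in the lymph node and between 30 and 80 in the lung libraries.

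The second intronic region of Tox2, 5.4 kb from the gene start (chr2:163208356-163208759), had log2 densities of 3.41 and 3.39 in LN IL-4+ cells. It had 1.15, 1.94 and 1.80 in lung IL-4+ cells and 1.10 and 1.36 in lung IFNγ+ cells, so that again no lung library reached a lymph node library. The log2 difference was -1.77 (SE 0.38, adjusted p = 0.036, limma) for lung IL-4+ cells and -2.17 (SE 0.41, adjusted p = 0.018, limma) for lung IFNγ+ cells, each against LN IL-4+ cells. The former call was lost whichever of the 7 libraries was left out (limma adjusted p of 0.0498 to 0.118, the lowest with a fold under 3), and the latter was lost without the first lymph node library (0.0732) or either lung IFNγ+ library (0.227 and 0.149). At the Tox2 promoter a region of 3422 bp (chr2:163202322-163205743) covered the first exon with its coding and untranslated parts. Its log2 densities were 4.92 and 4.92 in LN IL-4+ cells, 4.21, 4.49 and 4.41 in lung IL-4+ cells, and 3.67 and 3.8 in lung IFNγ+ cells. The 3 populations did not overlap at the promoter, where lung IFNγ+ cells were lower than LN IL-4+ cells by 2.27-fold (SE 0.20 on the log2 scale, limma adjusted p = 0.012), under the 3-fold needed for a call. The difference between lung IL-4+ and LN IL-4+ cells at the promoter was -0.55 (SE 0.19, adjusted p = 0.163, limma). The most open region of the locus, an intronic one 25.9 kb from the start, had log2 densities between 4.39 and 4.84 in all 7 libraries.

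Not every Tox2 region was higher in the lymph node. An intronic region 29.2 kb from the start, singled out after its values were seen, had log2 densities of 3.18 and 3.49 in LN IL-4+ cells. It reached 4.64, 4.40 and 4.20 in lung IL-4+ cells and 4.22 and 4.17 in lung IFNγ+ cells. Lung IL-4+ cells were 2.11-fold above LN IL-4+ cells there (limma adjusted p = 0.027), which was under the 3-fold needed for a call. Regions within the introns of 1 gene therefore differed in opposite directions.

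**Figure D1:**
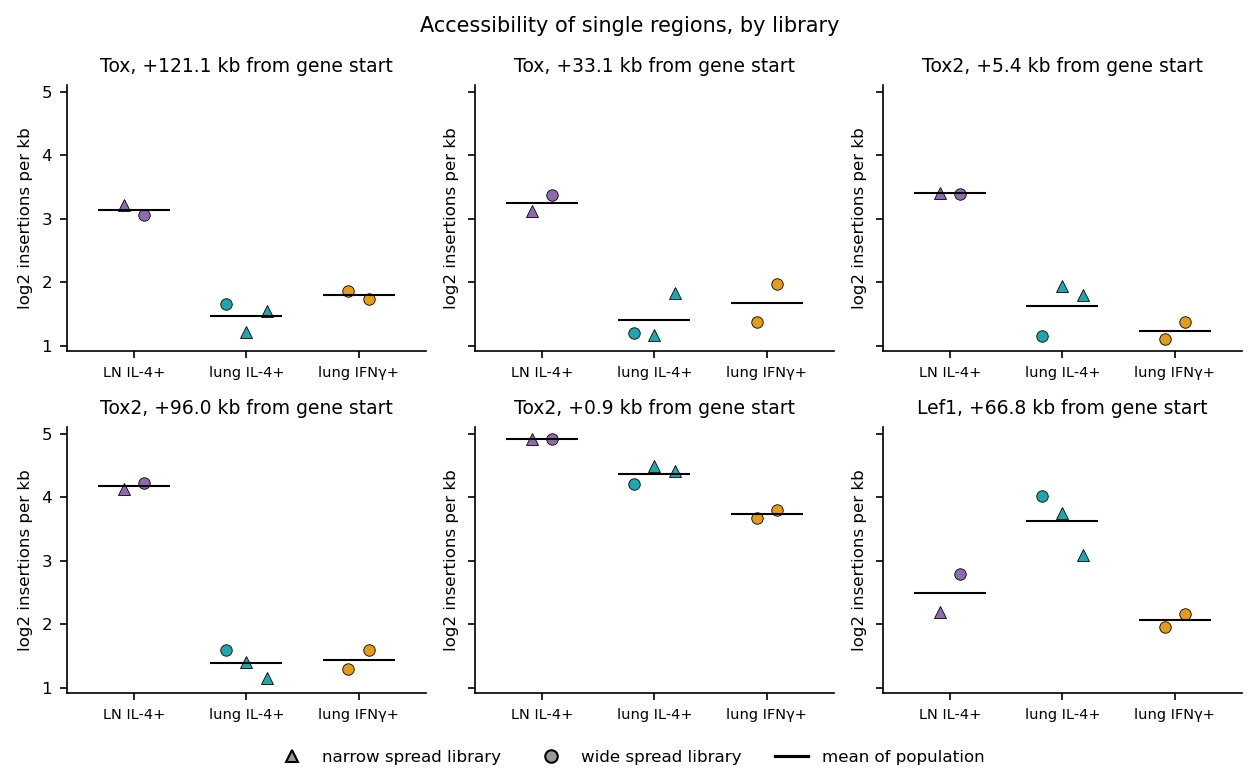
Accessibility of 6 single regions in each library, as log2 normalized insertions per kb (y axis) by population (x axis), with triangles for narrow and circles for wide libraries and a bar at the population mean. At the 4 called regions of Tox and Tox2 both LN IL-4+ libraries lie above all lung libraries, at the Tox2 promoter the populations descend from 4.92 to 3.67, and at the Lef1 region the 3 lung IL-4+ libraries are highest.

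Summed over its 29 regions, the Tox2 locus carried 256 and 231 normalized insertions in LN IL-4+ cells, 186, 212 and 212 in lung IL-4+ cells, and 148 and 155 in lung IFNγ+ cells. The order was LN IL-4+ (243 ± 17.3, SD, n = 2), lung IL-4+ (203 ± 15.1, n = 3), then lung IFNγ+ (151 ± 5.14, n = 2), with no overlap between neighbours. In a limma fit over the 17044 protein-coding genes with at least 1 region, the Tox2 locus in lung IFNγ+ cells was below that of the lymph node by 1.61-fold (log2 difference -0.69, SE 0.12, adjusted p = 0.035). The difference was -0.26 (SE 0.11, adjusted p = 0.351, limma) for lung IL-4+ against LN IL-4+ cells and 0.42 (SE 0.11, adjusted p = 0.212, limma) for lung IL-4+ against lung IFNγ+ cells. The Tox2 locus call was lost in limma when the first lymph node library (adjusted p = 0.078), the second (0.103) or the third (0.076) lung IL-4+ library, or the first (0.447) or second (0.323) lung IFNγ+ library was left out. Within the wide class alone the lung IFNγ+ libraries were lower than the lymph node library by 0.61 on the log2 scale, and with spread class as a covariate the difference was -0.60 (limma adjusted p = 0.0011).

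**Figure D2:**
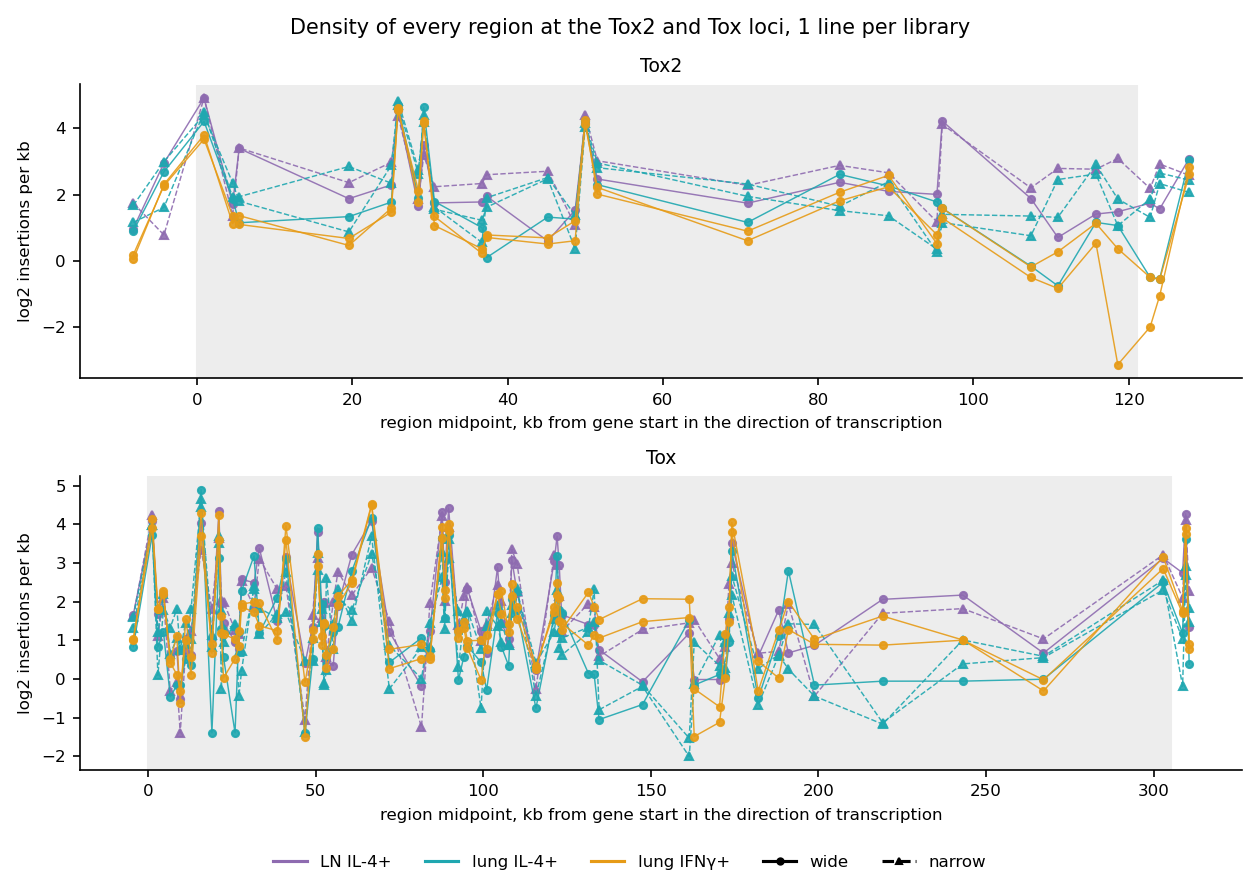
Log2 normalized insertions per kb (y axis) of every region at the Tox2 and Tox loci against the distance of its midpoint from the gene start in kb (x axis), with 1 line per library coloured by population, dashed for narrow and solid for wide libraries. Grey marks the gene body. The LN IL-4+ lines stand apart at 5.4 and 96.0 kb of Tox2, and all lines meet at 25.9 kb.

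Tox (chr4:6686353-6991557, minus strand), the longest of the 6 genes, was less open in lung IL-4+ cells than in LN IL-4+ cells at 2 intronic regions, while the promoter differed little. The intronic region 33.1 kb from the start (chr4:6958059-6958768) had log2 densities of 3.12 and 3.38 in LN IL-4+ cells, 1.19, 1.16 and 1.83 in lung IL-4+ cells, and 1.38 and 1.97 in lung IFNγ+ cells. Lung IL-4+ cells were 3.61-fold lower than LN IL-4+ cells (log2 difference -1.85, SE 0.39, adjusted p = 0.034, limma). The region 121.1 kb from the start (chr4:6869935-6870893) had 3.21 and 3.05 in LN IL-4+ cells, 1.65, 1.21 and 1.55 in lung IL-4+ cells, and 1.86 and 1.73 in lung IFNγ+ cells. Lung IL-4+ cells were 3.17-fold lower there (log2 difference -1.66, SE 0.35, adjusted p = 0.033, limma). In both introns the lung IFNγ+ libraries were also below the lymph node libraries, but that contrast did not pass (limma adjusted p = 0.072 and 0.084). The call at 33.1 kb was kept when the third lung IL-4+ library was left out and lost when any other was (limma adjusted p of 0.0535 to 0.126), and that at 121.1 kb was kept when the first lung IL-4+ library was left out and lost when any other was (0.064 to 0.122). The printed window of the first holds 1 NFAT match, and that of the second holds none of the searched motifs.

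The Tox promoter region, 2858 bp over the first exon, had log2 densities of 4.24 and 4.08 in LN IL-4+ cells, 3.74, 3.99 and 3.98 in lung IL-4+ cells, and 3.90 and 4.13 in lung IFNγ+ cells. The differences between populations there were at most 0.26 in size, with limma adjusted p of 0.615 or more. The most open Tox region, intronic and 15.8 kb from the start, ran the other way, with 3.35 and 4.05 in LN IL-4+ cells against 4.90, 4.46 and 4.66 in lung IL-4+ cells (log2 difference 0.97, SE 0.27, adjusted p = 0.094, limma). Over its 73 regions the Tox locus carried 304 and 315 normalized insertions in LN IL-4+ cells, 229, 219.6 and 230.4 in lung IL-4+ cells, and 238 and 278 in lung IFNγ+ cells. The order of the sums was LN IL-4+ (309 ± 8.05, SD, n = 2), lung IFNγ+ (258 ± 28.5, n = 2) and lung IL-4+ (226 ± 5.95, n = 3), and no 2 populations overlapped. The Tox sum was 1.37-fold lower in lung IL-4+ than in LN IL-4+ cells without passing the test (log2 difference -0.45, SE 0.11, limma adjusted p = 0.113). The Tox difference was -0.43 in the narrow and -0.46 in the wide libraries, and with spread class as a covariate it was -0.44 (SE 0.08, limma adjusted p = 0.0052).

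Tcf7 (chr11:52252371-52283014, minus strand) had its highest sum in a lymph node library and its lowest sums in the lung IFNγ+ libraries, but the libraries of 1 population lay far apart. Its 15 regions carried 523 and 216 normalized insertions in LN IL-4+ cells, 164, 327 and 363 in lung IL-4+ cells, and 158 and 151 in lung IFNγ+ cells. The 3 narrow libraries had the 3 highest sums and the wide libraries the 4 lowest, a split that also held in all narrow against all wide libraries for 11 of the 15 regions (73.3%, against 14.8% of all regions). The order was LN IL-4+ (370 ± 218, SD, n = 2), lung IL-4+ (285 ± 106, n = 3), then lung IFNγ+ (154 ± 4.57, n = 2), and the first 2 did not differ beyond their spread. The log2 difference was -1.12 (SE 0.46) for lung IFNγ+ against LN IL-4+ cells, -0.32 (SE 0.42) for lung IL-4+ against LN IL-4+ cells and 0.80 (SE 0.42) for lung IL-4+ against lung IFNγ+ cells (limma adjusted p = 0.286, 0.8 and 0.359). The difference between lung IL-4+ and LN IL-4+ cells turned to 0.32 when the first lymph node library was left out and to 0.04 when the first lung IL-4+ library was. That between lung IFNγ+ cells and the lymph node was -0.48 (limma adjusted p = 0.737) without the first lymph node library and -1.76 (limma adjusted p = 0.0272) without the second.

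Within a class, each with 1 lymph node library, the Tcf7 locus was lower in the lung. The log2 difference of lung IL-4+ from LN IL-4+ cells was -0.60 among narrow and -0.39 among wide libraries, and that of lung IFNγ+ from LN IL-4+ cells was -0.48 among wide libraries. With spread class as a covariate the Tcf7 locus was lower than in LN IL-4+ cells by 0.51 in lung IL-4+ cells (SE 0.08, limma adjusted p = 0.0021) and by 0.54 in lung IFNγ+ cells (SE 0.09, limma adjusted p = 0.0045). That fit called 9.47% and 6.81% of all genes lower in these contrasts. The same model put the 2 lung populations 0.03 apart (SE 0.09, limma adjusted p = 0.943). Spread class moved with the sums, and its part in them beyond these fits was not tested.

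The Tcf7 promoter lay in a region of 14151 bp (chr11:52270509-52284659) that held 44.2% of the locus signal (39.5% to 52.6% over libraries). This region also covered the starts of the annotated genes Gm26551 and A630014C17Rik, whose signal cannot be told from that of Tcf7. Its log2 densities were 4.28 and 2.79 in LN IL-4+ cells, 2.19, 3.41 and 3.52 in lung IL-4+ cells, and 2.16 and 2.13 in lung IFNγ+ cells. The most open Tcf7 region, intronic and 18.5 kb from the start, had 4.00 and 3.18 in LN IL-4+, 3.32, 4.01 and 4.09 in lung IL-4+ and 3.15 and 3.09 in lung IFNγ+ libraries. The widest gap of lung IFNγ+ from LN IL-4+ cells lay 33.0 kb from the start, downstream of the gene, with 3.34 and 1.64 in LN IL-4+ cells against 0.10 and -0.03 (log2 difference -2.45, SE 0.80, limma adjusted p = 0.128). The sums at the 6 loci are plotted by library and class.

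**Figure D3:**
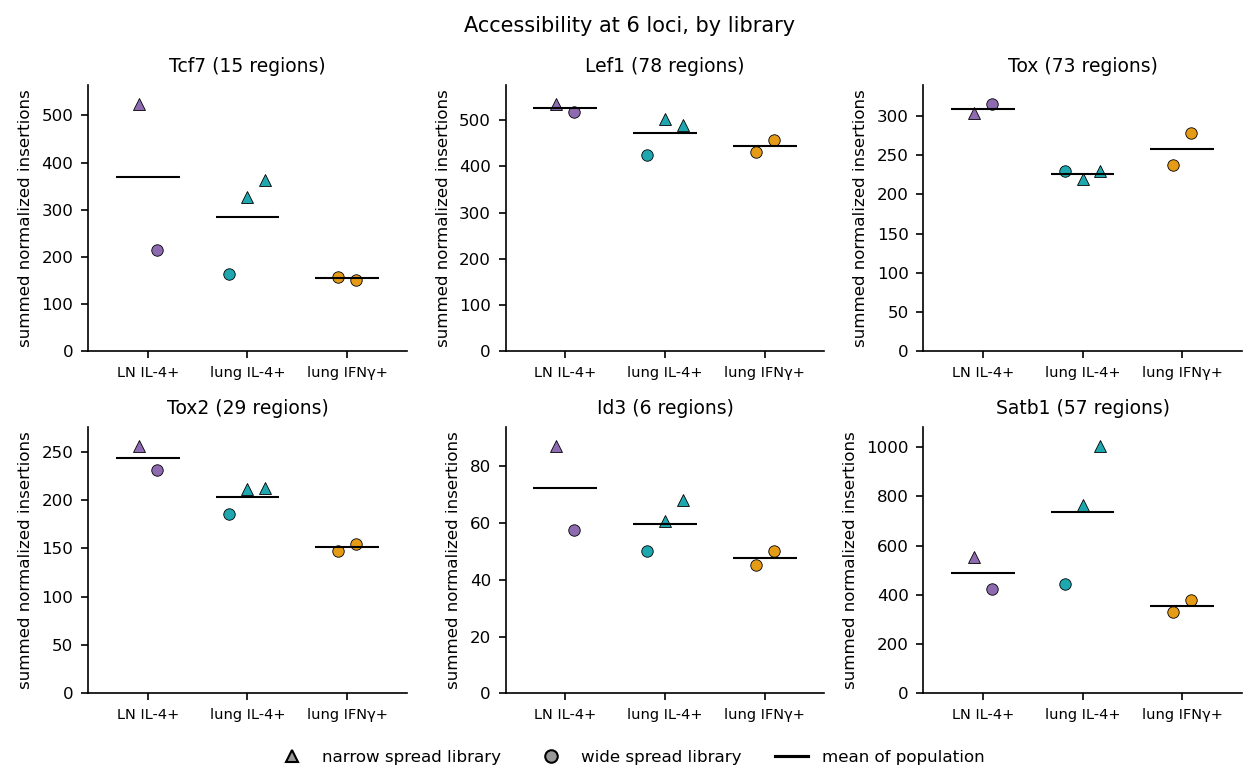
Summed normalized insertions (y axis, from 0) over all regions of each gene and the 10 kb on either side, by population (x axis) and library, with triangles for narrow and circles for wide libraries and a bar at the mean. At Tcf7, Id3 and Satb1 the narrow libraries lie above the wide ones, and at Lef1, Tox and Tox2 all lung libraries lie below both LN IL-4+ libraries.

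Lef1 (chr3:131110471-131224356, plus strand) had slightly higher sums in both LN IL-4+ libraries than in all lung libraries. No difference in its sum or at a single region of it was called. The 78 regions carried 535 and 518 normalized insertions in LN IL-4+ cells, 426, 504 and 489.8 in lung IL-4+ cells, and 430.4 and 457 in lung IFNγ+ cells. The order was LN IL-4+ (526 ± 11.6, SD, n = 2), lung IL-4+ (473 ± 41.6, n = 3), then lung IFNγ+ (444 ± 19.1, n = 2), where the 2 lung populations overlapped. The log2 difference from LN IL-4+ cells was -0.16 (SE 0.12) in lung IL-4+ and -0.25 (SE 0.13) in lung IFNγ+ cells (limma adjusted p = 0.603 and 0.369). The 3438 bp promoter region of Lef1, which also covers the start of the annotated gene Gm43352, had log2 densities of 4.91 and 4.86 in LN IL-4+ cells, 4.59, 4.75 and 4.76 in lung IL-4+ cells, and 4.37 and 4.44 in lung IFNγ+ cells. The promoter differences were within 0.48 in size (limma adjusted p of 0.2 or more).

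The most open region at any of the 6 loci was an intronic one of Lef1, 98.3 kb from the start (chr3:131208501-131208959), with a mean density of 94.1 insertions per kb. Its log2 densities were 5.63 and 6.54 in LN IL-4+ cells, 6.70, 6.45 and 6.38 in lung IL-4+ cells, and 6.85 and 6.98 in lung IFNγ+ cells. A second intron, 66.8 kb from the start (chr3:131176873-131177659), was most open in lung IL-4+ cells, with 4.03, 3.76 and 3.09 against 2.19 and 2.8 in LN IL-4+ cells and 1.96 and 2.16 in lung IFNγ+ cells. The log2 difference there was 1.57 (SE 0.34, limma adjusted p = 0.078) from lung IFNγ+ cells and 1.13 (SE 0.34, limma adjusted p = 0.120) from LN IL-4+ cells. Among the alternative fits, the contrast with lung IFNγ+ cells passed only with spread class as a covariate (1.97, limma adjusted p = 0.0083) and with voom on rebuilt counts (2.05, limma adjusted p = 0.016). Those fits called 0.501% and 0.481% of all regions in that direction, against 0.108% in the main fit. In the printed window of this region the matches are 1 to the E protein motif and 1 to the GATA motif. The region 80.4 kb from the start, over a coding exon, ran the other way, with 2.28 and 3.43 in LN IL-4+ cells and 1.24, 0.37 and 1.00 in lung IL-4+ cells (log2 difference -1.98, SE 0.52, limma adjusted p = 0.074).

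Id3 (chr4:136143497-136145755, plus strand) is the shortest gene, with 6 regions, and its highest sum was in the first lymph node library. The sums were 87.1 and 57.6 normalized insertions in LN IL-4+ cells, 50.1, 60.6 and 68.1 in lung IL-4+ cells, and 45.3 and 50.1 in lung IFNγ+ cells. The means were 72.4 ± 20.9 (SD, n = 2), 59.6 ± 9.02 (n = 3) and 47.7 ± 3.43 (n = 2), and the 2 IL-4+ populations overlapped. The lung populations all but touched, at 50.12 for the lowest lung IL-4+ and 50.1 for the highest lung IFNγ+ library. As at Tcf7, all narrow libraries had higher Id3 sums than all wide ones. That split held for 4 of the 6 regions (66.7%, against 14.8% of all regions). Between lung IL-4+ and LN IL-4+ cells the Id3 difference was -0.44 among narrow and -0.20 among wide libraries, with 1 lymph node library in each class. The log2 difference was -0.57 (SE 0.23, limma adjusted p = 0.265) for lung IFNγ+ against LN IL-4+ cells. For lung IL-4+ against LN IL-4+ cells it was -0.26 (SE 0.21, limma adjusted p = 0.635), which turned to 0.04 without the first lymph node library. Among wide libraries the lung IFNγ+ difference from LN IL-4+ cells was -0.28, and with spread class as a covariate -0.34 (limma adjusted p = 0.0978). Lung IL-4+ differed from lung IFNγ+ cells by 0.07 among wide libraries and by 0.006 with that covariate (limma adjusted p = 0.991). The promoter region of Id3 had log2 densities of 5.04 and 4.34 in LN IL-4+, 4.00, 4.52 and 4.71 in lung IL-4+ and 3.68 and 3.91 in lung IFNγ+ libraries. Its most open region, 4.4 kb from the start and downstream of the gene (chr4:136147706-136148167), stayed between 5.25 and 5.89 in all 7 libraries.

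Satb1 (chr17:51736187-51833290, minus strand) was the only one of the 6 loci with its highest mean sum in lung IL-4+ cells. Its 57 regions carried 555 and 425 normalized insertions in LN IL-4+ cells, 443, 765 and 1003 in lung IL-4+ cells, and 332 and 381 in lung IFNγ+ cells. The order was lung IL-4+ (737 ± 281, SD, n = 3), LN IL-4+ (490.2 ± 91.8, n = 2) and lung IFNγ+ (357 ± 34.3, n = 2), with overlap between the IL-4+ populations. The log2 difference was 0.97 (SE 0.31, limma adjusted p = 0.285) for lung IL-4+ against lung IFNγ+ cells and 0.52 (SE 0.31, limma adjusted p = 0.501) for lung IL-4+ against LN IL-4+ cells. As at Tcf7, the narrow libraries had the highest sums, and 32 of the 57 regions (56.1%) were higher in all narrow than in all wide libraries. Between lung IL-4+ and LN IL-4+ cells the difference was 0.66 among narrow and 0.06 among wide libraries, and 0.40 with spread class as a covariate (SE 0.14, limma adjusted p = 0.083). Between lung IL-4+ and lung IFNγ+ cells it was 0.32 among wide libraries and 0.49 with that covariate (SE 0.17, limma adjusted p = 0.189).

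Satb1 regions nonetheless shared a direction within both classes. Lung IL-4+ libraries were above LN IL-4+ libraries of the same class in 37 of the 57 regions (64.9%, against 23.7% of all regions), and LN IL-4+ libraries were above those of the lung in 0 of 57 (26.6% of all regions). These regions are neighbours in 1 gene and are not independent. The widest gap lay in an intron 60.0 kb from the start, with log2 densities of 1.53 and 0.90 in LN IL-4+ cells, 1.58, 3.16 and 3.21 in lung IL-4+ cells, and 0.75 and 0.82 in lung IFNγ+ cells. The second and the third lung IL-4+ libraries were high, and the first was close to a lymph node library. The promoter region at the gene start, which also covers the start of Gm6934, had 4.01 and 3.88 in LN IL-4+ cells, 3.80, 4.17 and 4.47 in lung IL-4+ cells, and 3.51 and 3.65 in lung IFNγ+ cells. The most open Satb1 region, 70.6 kb from the start, had between 3.97 and 4.81 in all 7 libraries, with the populations overlapping.

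**Figure D4:**
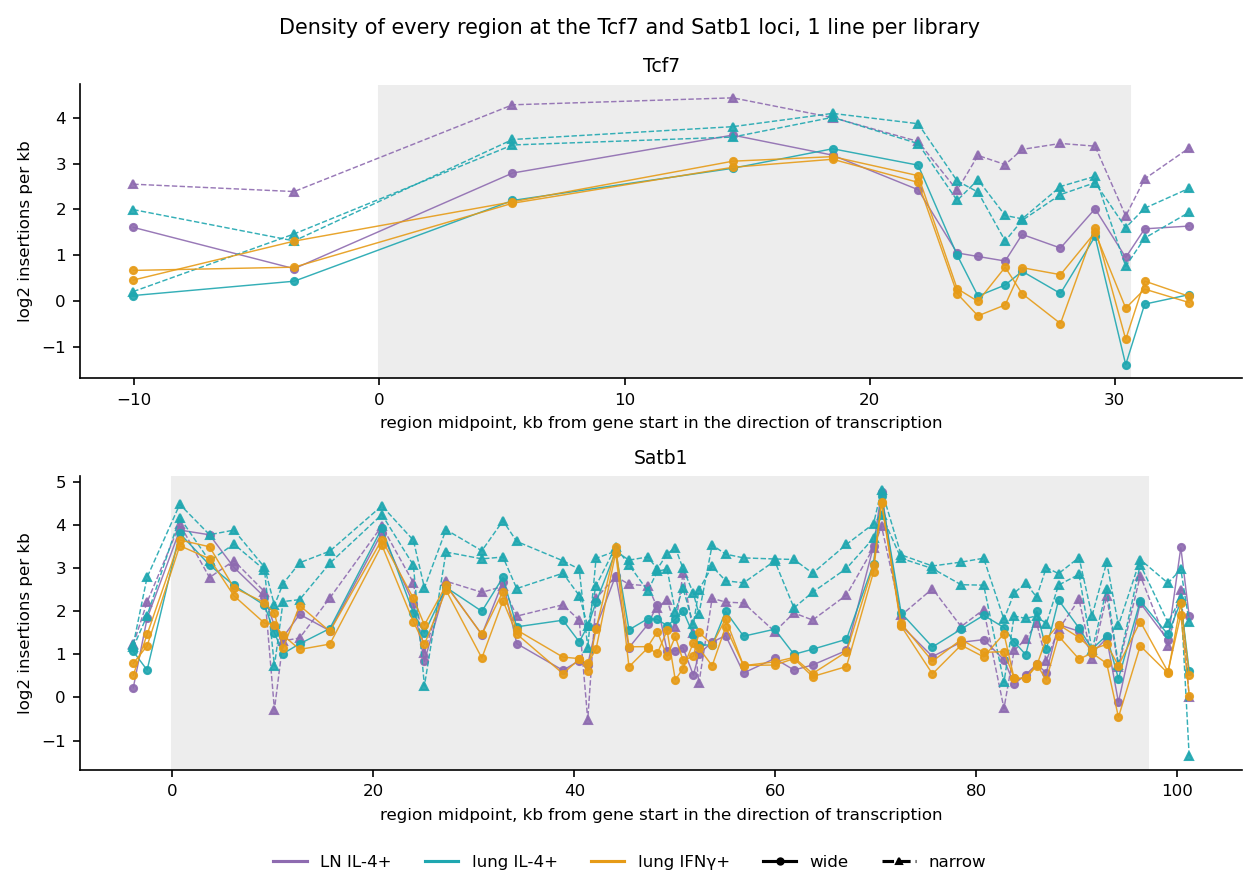
Log2 normalized insertions per kb (y axis) of every region at the Tcf7 and Satb1 loci against the distance of its midpoint from the gene start in kb (x axis), with 1 line per library coloured by population, dashed for narrow and solid for wide libraries. Grey marks the gene body. The dashed lines run above the solid ones over much of both loci, and they come together at the most open Satb1 region, 70.6 kb from the start.

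Regions counted as called when both the adjusted p (below 0.05) and the fold (at least 3) passed in limma over all 113820 regions. In lung IL-4+ against LN IL-4+ cells, 4 of the 258 were higher in the lymph node (background 0.695% of all regions) and 0 in the lung (background 1.05%). The 4 were the Tox and Tox2 introns described above. Unadjusted limma p was below 0.05 for 23 regions lower and 10 higher in lung IL-4+ cells, beside 7.38% and 8.82% of all regions. In lung IFNγ+ against LN IL-4+ cells, 2 regions, both of Tox2, were higher in the lymph node (background 0.862%) and 0 in the lung (background 2.17%). Here 37 regions were lower and 5 higher in lung IFNγ+ cells at an unadjusted limma p below 0.05, beside 7.81% and 10.7% of all regions. Between the 2 lung populations 0 regions were called in limma, against a background of 0.108% higher in lung IL-4+ and 0.387% higher in lung IFNγ+ cells. At an unadjusted p below 0.05 that contrast had 46 regions higher and 10 lower in lung IL-4+ cells, beside 6.36% and 8.45% of all regions. Voom on rebuilt counts called 2 regions higher in lung IL-4+ cells, beside 0.481% of all regions. Of the 6 locus sums, 1 was called, that of Tox2 in lung IFNγ+ against LN IL-4+ cells (background 0.81% of all genes, and 1.33% in the other direction). No locus was called between lung IL-4+ and LN IL-4+ cells (background 0.417% and 0.663% higher in the lymph node and in the lung). At an unadjusted p below 0.05 that contrast had 2 of 6 loci lower in the lung, beside 9.03% of all genes, and with spread class as a covariate it had 4 (Tcf7, Tox, Tox2 and Id3), against 9.47% of all genes called in that direction by that fit. Between the lung populations 0 loci were called by limma, with a background of 0% higher in lung IL-4+ and 0.0528% higher in lung IFNγ+ cells. At an unadjusted p below 0.05, 2 loci were higher in lung IL-4+ cells, beside 5.69% of all genes.

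More regions leaned toward the lymph node than passed the test. The libraries did not overlap, with LN IL-4+ above lung IFNγ+ cells, in 138 of 258 regions (53.5%, background 27.2%), with lung IFNγ+ cells higher in 25 (9.69%, background 26.5%). By locus the first count was 13 of 15 at Tcf7, 46 of 78 at Lef1, 31 of 73 at Tox, 20 of 29 at Tox2, 3 of 6 at Id3 and 25 of 57 at Satb1. LN IL-4+ cells were above lung IL-4+ cells without overlap in 57 regions (22.1%, background 14.3%), of which 29 lay at Tox and 21 at Lef1, and lung IL-4+ cells were above in 24 (9.3%, background 13.6%), of which 13 lay at Satb1. Lung IL-4+ cells were above lung IFNγ+ cells in 87 regions (33.7%, background 19.4%), of which 39 lay at Satb1, and below in 32 (12.4%, background 21.2%), of which 21 lay at Tox. LN IL-4+ libraries exceeded every lung library of their own class in 88 of the 258 regions (34.1%, background 19.7%), which included 31 of 73 at Tox, 15 of 29 at Tox2, 28 of 78 at Lef1 and 11 of 15 at Tcf7. LN IL-4+ libraries exceeded the lung IL-4+ libraries of their class in 113 regions (43.8%, background 26.6%).

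**Figure D5:**
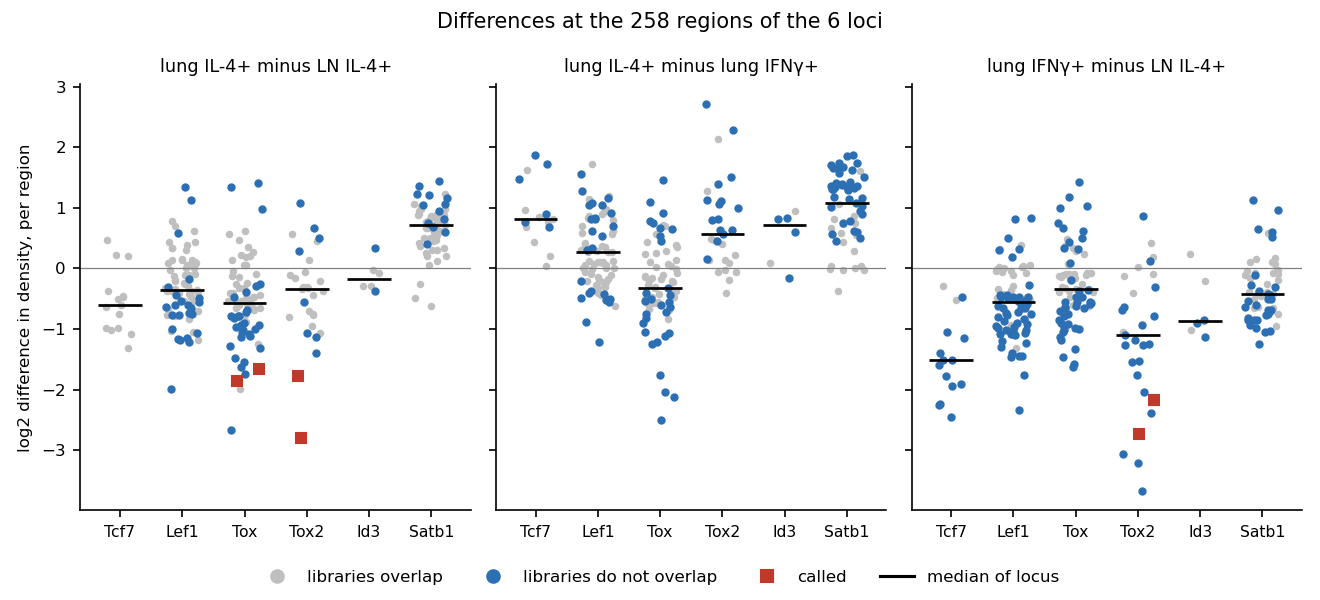
Log2 difference in density (y axis) for each region of the 6 loci (x axis) in each pairwise contrast, with grey points where libraries of the populations overlap, blue where they do not, red squares where the region was called, and a bar at the median of the locus. Medians lie below 0 for all 6 loci in lung IFNγ+ minus LN IL-4+, and Satb1 is the only locus above 0 in lung IL-4+ minus LN IL-4+.

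The median log2 difference over the 258 regions was -0.51 for lung IFNγ+ against LN IL-4+ cells, -0.29 for lung IL-4+ against LN IL-4+ cells and 0.36 for lung IL-4+ against lung IFNγ+ cells. Over all regions the same medians were -0.03, -0.03 and -0.01. Among loci, Tcf7 had the lowest median for lung IFNγ+ against LN IL-4+ cells (-1.52), followed by Tox2 (-1.11), Id3 (-0.87), Lef1 (-0.56), Satb1 (-0.43) and Tox (-0.34). Among wide libraries alone the locus sums had another order, with log2 differences of -0.48 for Tcf7 and -0.61 for Tox2. Counted over whole loci, all 6 sums were higher in both LN IL-4+ than in both lung IFNγ+ libraries (background 30.2% of genes, and 21.2% for the other direction). Lef1, Tox and Tox2 had both LN IL-4+ libraries above all lung IL-4+ libraries (background 17.7%), and 0 loci had the reverse (background 7.88%). Tcf7, Tox2, Id3 and Satb1 were higher in all lung IL-4+ than in both lung IFNγ+ libraries (background 24.8%), and Tox was lower (background 28.8%). These contrasts share libraries. Among wide libraries, where lung IL-4+ cells have only the first library, the lung populations differed less at several loci. The log2 differences there were 0.09 at Tcf7, 0.30 at Tox2, 0.07 at Id3, 0.32 at Satb1 and -0.16 at Tox. In exact two-sided permutation tests of single loci the p could not go below 0.333 with 2 against 2 libraries or 0.1 with 3 against 2, and those limits were met by all 6 loci for lung IFNγ+ against LN IL-4+ cells and by Tox and Tox2 in both contrasts with lung IL-4+ cells. In these bulk libraries, fewer cells with an open region and a less open region in each cell cannot be told apart.

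Genes around these factors gave few calls by locus sum. Of 16 partners of TCF-1 and LEF-1, among them β-catenin (Ctnnb1), the Groucho corepressors and the coactivators of the Bcl9 and Pygo families, 0 were called in any contrast by limma, and 4, 3 and 4 passed an unadjusted p below 0.05 for lung IL-4+ against LN IL-4+, lung IL-4+ against lung IFNγ+ and lung IFNγ+ against LN IL-4+ cells. Their median log2 difference from LN IL-4+ cells was -0.13 in lung IL-4+ and -0.22 in lung IFNγ+ cells, beside -0.09 and -0.06 over all genes. Of 10 relatives of the 6 factors, such as Tox4, Id2 and the E protein gene Tcf12, 0 were called by limma, with 2, 1 and 1 at an unadjusted p below 0.05. That threshold was passed by 5, 3 and 7 of the 17 naive and stem-like genes and by 5, 2 and 5 of the 10 effector factors in the same order, beside 13.9%, 14.9% and 16.3% of all genes. Of 17 genes of naive and stem-like T cells, 1 rose and 1 fell in lung IL-4+ against LN IL-4+ cells, beside 0.663% and 0.417% of all genes. In lung IFNγ+ cells 3 of the 17 were lower and 0 higher than in the lymph node, beside 0.81% and 1.33% of all genes. Nsg2, listed as a naive T cell gene, carried 144 and 134 normalized insertions in LN IL-4+, 68.2, 68.2 and 80.4 in lung IL-4+ and 64.6 and 70.5 in lung IFNγ+ libraries. The Nsg2 differences from the lymph node were -0.95 and -1.04 (limma adjusted p = 0.022 and 0.015). Slamf6, a receptor of the SLAM family, and Myb fell below their lymph node level in lung IFNγ+ cells, by 0.73 and 0.79 on the log2 scale (limma adjusted p = 0.039 and 0.033).

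Il7r, the IL-7 receptor chain of resting and memory T cells, was the 1 gene of that list called higher in lung IL-4+ cells. Its locus carried 56.7 and 74.6 normalized insertions in LN IL-4+ cells, 125, 139 and 135 in lung IL-4+ cells, and 91.7 and 117 in lung IFNγ+ cells (log2 difference 1.03 for lung IL-4+ against LN IL-4+ cells, limma adjusted p = 0.035). Of 10 effector factors, Rora, a nuclear receptor of type 2 and tissue lymphocytes, was the only one called, and its sum exceeded that of the lymph node by 1.10 in lung IL-4+ cells (limma adjusted p = 0.00898) and by 0.93 in lung IFNγ+ cells (limma adjusted p = 0.013). The median log2 difference of the effector factors was 0.35 for lung IL-4+ against LN IL-4+ cells, and that of the naive and stem-like genes was -0.10, beside -0.09 over all genes. For lung IFNγ+ against LN IL-4+ cells the medians were 0.14 and -0.38, beside -0.06 over all genes, and 15 of the 17 naive and stem-like genes were below 0.

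The letters of the TCF and LEF motif were present in the central 300 bases of 20 of the 258 regions (7.75%, beside 5.5% of all regions), of which 9 lay at Lef1 and 8 at Tox. At Tox2 the region at 96.0 kb was the only 1 of 29 that held them. The NFAT motif was present in 31 regions (12%, beside 7.16%), the GATA motif in 39 (15.1%, beside 15.2%), the E protein motif in 73 (28.3%, beside 34.5%), the bZIP motif in 27 (10.5%, beside 13%), the RUNX motif in 20 (7.75%, beside 11%) and the T-box motif in 2 (0.775%, beside 1.68%). Motifs could overlap one another, and a match is a description of the letters alone.

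The loci whose mean-centred log2 sums over the 7 libraries came closest to each member were found among protein-coding genes with 5 or more regions. For Tox2 they were Zic5, Tbr1 and Tmem131 (root mean square differences of 0.039, 0.042 and 0.05), beside a standard deviation of Tox2 over libraries of 0.272. For Tox they were Kcnh2, Papolg and F2rl1 (0.038, 0.053 and 0.055, beside 0.197). For Lef1 they were Helz2 and Stk24 (0.036 and 0.037, beside 0.12), and for Id3 they were Cpt1c, Socs7 and Ccdc167 (0.041, 0.041 and 0.048, beside 0.297). Tcf7, with a standard deviation of 0.649, had less close neighbours in Esrp2 and Itgb4 (0.13 and 0.14), and so did Satb1 in Zc3hav1, Lcp2 and Rap1b (0.12, 0.12 and 0.13, beside 0.531). These neighbours were chosen for their likeness from between 9662 and 9681 genes per member.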

How the data were processed

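The 7 ATAC-seq libraries of CD4+ T cells were assigned to 3 populations from the tissue and reporter that the labels state. The authors mapped reads to GRCm38/mm10 (Bowtie2 2.3.2 in the submitters' processing notes), removed mitochondrial, blacklisted and low-quality reads, called summits per replicate (MACS2 2.1.1), merged regions across replicates, counted transposase insertions per region and normalized them with voom (limma 3.38.3). The deposited values are log2 normalized insertions per kb. After adding the log2 of the region length, sorted values had a median SD between libraries of 0.0049. A step like quantile normalization was therefore probably applied as well, which the sources do not state. Insertion counts were rebuilt as the rank of each distinct value in a library, a lower bound, and whole read depth is unknown. Libraries were classed as wide where the interquartile range of log2 rebuilt insertions was above 2.

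All 113820 regions were fitted with limma 3.58.1 (R 4.3.3), 1 mean per population and a variance trend, with p-values adjusted by Benjamini-Hochberg over all regions. Calls took regions with an adjusted p below 0.05 whose fold reached 3, and neither a pseudocount nor a filter was used. Locus sums were the log2 of summed normalized insertions over the regions of each protein-coding gene (GENCODE M21) and 10 kb on each side, tested likewise over 17044 genes at an adjusted p below 0.05. The fits were run on simulated data as a check of the code, and recovery was required only at a spread below the observed one. That check gives no measure of power in these data. Exact permutation tests and motif searches used Python 3.11.15 with scipy 1.17.1, numpy 2.4.6 and pandas 2.3.3, and plots matplotlib 3.10.9. Named regions were those called, those within 1 kb of an annotated start, the most open one of each locus, and the one with the largest difference in each contrast among those whose libraries did not overlap; not all of these are printed. Named neighbours were the 3 genes with the smallest root mean square difference, at least 1 Mb away, of which some are not reported here. Printed sequences were read from the GRCm38 assembly of RefSeq. The members, gene lists and motifs were chosen with earlier results of these data known. Alternatives left out each library, fitted 2 populations at a time, added the replicate number or the spread class, changed scaling, variance model, weights, pseudocount (1), filter (density of 5), unit, fold, flank and locus summary.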

Additional observations from a re-analysis of the deposited data

How the results depend on the processing

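With each library left out in turn, the 4 regions higher in the lymph node against lung IL-4+ cells became 1 to 4. Without the first lung IL-4+ library the calls were Tox at 27.8, 121.1 and 219.2 kb and Tox2 at 96.0 kb. Of these, Tox at 27.8 and 219.2 kb were not called in the main fit, and Tox at 33.1 kb and Tox2 at 5.4 kb were lost. The number called was 4 without that library, 2 without the third lung IL-4+ library and 1 without any other. It was 1 with 2 populations per fit, array weights, log2(density + 1) or voom on rebuilt counts, 0 with no variance trend and 7 with spread class as a covariate, a fit that called 1.39% of all regions in that direction. In the other direction 0 regions became 0 to 1 (1 without the first lung IL-4+ library) and 2 with no fold minimum or a fold of at least 2. The 2 regions higher in the lymph node against lung IFNγ+ cells became 0 to 6 (6 without the second lymph node or the first lung IL-4+ library, 0 without either lung IFNγ+ library), 4 with array weights and 7 with voom (2.46% of all regions), and the opposite direction gave 0 to 1 (1 without the second lymph node library). For the lung populations, 0 regions higher in lung IL-4+ cells became 0 to 3 with a library left out. They became 1 with spread class, 2 with voom and 23 with array weights. The 0 regions higher in lung IFNγ+ cells became 0 to 1 with a library left out and 3 with array weights. Both maxima with a library left out were those without the first lung IL-4+ library. Of all regions, spread class called 0.501% and voom 0.481% higher in lung IL-4+ cells. The shares of all regions called with array weights, and those of all regions and loci with a library left out, are not given here. Those counts therefore cannot be set against a background. Array weights, whose estimation stopped short of its convergence tolerance, called 6 member loci between the lung populations, beside 70.1% of all loci. That fit weighed the second lung IL-4+ library 7.5, the lung IFNγ+ libraries 4.4 and the others 0.2 to 0.72. Spread class called 4 loci for lung IL-4+ cells and 2 (Tcf7 and Tox2) for lung IFNγ+ cells against the lymph node, all lower in the lung, beside 9.47% and 6.81% of all genes in that fit. The 1 locus called in the latter contrast became 0 to 3 (3 without the second lymph node library, 1 without the first lung IL-4+ library and 0 otherwise), and 0 with 2 populations per fit, median centring, no variance trend or the mean of log2 densities. The cause of these changes was not tested.

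The Tox2 region at 96.0 kb kept its direction in 17 of 17 alternatives and its call in 15 of 17 in both contrasts with the lymph node. It was lost for lung IL-4+ cells with the replicate block (adjusted p = 0.123, limma) and no variance trend (0.0678), and for lung IFNγ+ cells without the first (0.0883) or second (0.0619) lung IFNγ+ library. The Tox regions at 33.1 and 121.1 kb kept their calls in 5 of 17 each, and the Tox2 region at 5.4 kb in 4 of 17 for lung IL-4+ and 13 of 17 for lung IFNγ+ cells. Some locus sums turned direction. With a library left out, the log2 difference of lung IL-4+ cells from the lymph node ranged from -0.96 to 0.32 for Tcf7 and from -0.56 to 0.038 for Id3. For Lef1 the difference of the lung populations was -0.0089 with spread class and -0.15 with quantile normalization.

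Same-numbered libraries had correlations of their deviations from the population mean between -0.542 and 0.057. Same-numbered lymph node and lung IL-4+ libraries were of opposite spread class, and deviations in a population of 2 libraries mirror each other. The correlations therefore cannot tell whether libraries shared animals. With the replicate block, 0 regions in place of 4 were called for lung IL-4+ cells and 1 in place of 2 for lung IFNγ+ cells against the lymph node, and 0 loci in place of 1. Some regions were thinly covered. At 118.6 kb from the start of Tox2 the first lung IFNγ+ library had 0 rebuilt insertions, of 53657354 over all regions. The third lung IL-4+ library, with 14005923 over all regions, had 27 there. The part of depth in such values was not tested.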
